A study of Mus musculus with 28 samples.

Results

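MEK inhibition at 4h of TGF-β was examined in 6 H3K27ac ChIP-seq peak lists of NMuMG cells, 3 with the solvent DMSO and 3 with the inhibitor UO126 (ERKi). They are 6 of the 15 H3K27ac libraries and of the 28 samples in the series, and were taken by the sample titles. All 6 cultures were NMuMG/E9, a subclone of a mouse mammary gland epithelial line, and all 6 received TGF-β at 2 ng/ml for 4h. The ERKi cultures were given UO126 at 25 µM, started 30 min before TGF-β, and the DMSO cultures its solvent at the same time. The comparison asks which H3K27ac regions differ when ERK signalling is blocked during the first hours of the epithelial to mesenchymal transition (EMT). A single subclone and a single compound stand behind every value, and no H3K27ac library without TGF-β received UO126.

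UO126 blocks MEK1 and MEK2, the kinases that phosphorylate ERK1 and ERK2. Active ERK phosphorylates ETS factors and raises and stabilises AP-1 proteins, and cells answer it by making their own brakes on the pathway, such as the Sprouty proteins and the dual-specificity phosphatases. Acetylation of lysine 27 of histone H3 marks promoters and enhancers in use, and its loss at an enhancer generally goes with lower activity of that element. TGF-β itself signals through Smad proteins and, in parallel, through ERK, which is why the 2 pathways are studied together in EMT.

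The lists held 50445, 56140 and 66385 peaks in the DMSO libraries and 56211, 57660 and 64815 in the ERKi libraries. The mean was 57657 ± 8078 (SD, n = 3) with DMSO and 59562 ± 4607 (SD, n = 3) with ERKi, and the groups overlapped (exact permutation test, two-sided, p = 0.8, smallest possible 0.1). Promoters held 18.1% of summits with DMSO and 18.3% with ERKi (exact permutation test, two-sided, p = 0.7). The bases covered by both of 2 libraries, as a share of those covered by either (Jaccard index), averaged 0.674 within groups and 0.678 between them (exact permutation test, one-sided, p = 0.7). The test does not take into account a pairing by replicate number. Pairs of the 2 groups with the same number shared 0.719, and those with different numbers 0.658, which is below the mean within groups. Peaks stood at the promoters of the epithelial genes Cdh1, Krt8 and Krt19 in all 6 libraries, while Epcam, Krt18 and Cldn7 had no summit within the promoter window. None of the 25 markers of basal and myoepithelial cells, fibroblasts, leukocytes, endothelial cells, adipocytes and neurons had a promoter peak in any library. The peak names are written in another form in the ERKi lists than in the DMSO lists, so any difference in how the groups were processed cannot be told apart from the treatment.

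A few of the called regions are shown by sequence, 5 for a motif they share and 4 for their place among the calls. The first 5 hold the AP-1 consensus TGANTCA, which reads the same on both strands, within the 500 bp centred on the summit, and are the 5 such regions with the largest decrease under ERKi. Each line gives 120 bases of the plus strand of mm9 centred on the motif, which is in capitals.
Gm10495, chr17:66672024-66672143: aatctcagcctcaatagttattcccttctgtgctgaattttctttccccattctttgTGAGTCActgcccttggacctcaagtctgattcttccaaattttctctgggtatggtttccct
Fzd5, chr1:64843919-64844038: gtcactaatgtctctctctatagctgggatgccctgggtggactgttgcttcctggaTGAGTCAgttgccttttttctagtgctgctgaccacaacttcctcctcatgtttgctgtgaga
Ros1, chr10:51890414-51890533: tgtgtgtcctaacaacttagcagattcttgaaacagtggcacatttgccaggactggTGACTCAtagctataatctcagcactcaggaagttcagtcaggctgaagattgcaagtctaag
Tead1, chr7:119789354-119789473: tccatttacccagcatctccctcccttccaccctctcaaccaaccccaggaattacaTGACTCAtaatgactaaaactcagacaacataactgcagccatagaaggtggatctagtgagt
Lmo7, chr14:102221999-102222118: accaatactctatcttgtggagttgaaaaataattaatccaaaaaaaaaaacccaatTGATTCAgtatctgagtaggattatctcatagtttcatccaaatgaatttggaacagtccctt
The next 4 are 150 bases centred on the summit and show the region that fell most (Lrrk1), the called region at a promoter (Etv4) and the 2 regions that rose (Cpeb4, Cyp1b1). Capitals mark every match to the 12 motifs searched, here the TEAD motif ACATTCC (as its reverse complement) and the SP motif GGGCGGGG (as its reverse complement) at Etv4, and no match in the other 3.
Lrrk1, chr7:73454647-73454796: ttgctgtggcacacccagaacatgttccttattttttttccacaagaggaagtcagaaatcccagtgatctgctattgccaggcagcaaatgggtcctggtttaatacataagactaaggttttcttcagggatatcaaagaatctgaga
Etv4, chr11:101646280-101646429: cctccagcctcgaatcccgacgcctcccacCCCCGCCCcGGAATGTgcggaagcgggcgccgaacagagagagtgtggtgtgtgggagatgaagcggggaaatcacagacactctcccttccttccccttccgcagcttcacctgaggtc
Cpeb4, chr11:31724396-31724545: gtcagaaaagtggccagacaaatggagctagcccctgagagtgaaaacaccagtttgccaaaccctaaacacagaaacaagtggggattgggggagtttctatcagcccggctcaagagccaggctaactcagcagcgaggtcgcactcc
Cyp1b1, chr17:80115455-80115604: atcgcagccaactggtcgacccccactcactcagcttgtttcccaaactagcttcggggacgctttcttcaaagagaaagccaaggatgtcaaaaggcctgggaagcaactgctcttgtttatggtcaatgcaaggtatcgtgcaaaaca

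The overlapping peaks of the 6 lists made 71317 merged regions. Of these, 35093 (49.2%) carried a peak in all 6 libraries, 20762 in 2 to 5 and 15462 in 1. The 35093 were tested on the pileup at the summit, which is the number of fragments that cover the highest point, after quantile normalisation. With ERKi, 38 regions were lower (0.108% of those tested) and 2 were higher (0.0057%) in limma at an adjusted p under 0.05, together 0.114%. All 38 had ERKi libraries below every DMSO library, where 6.58% of all tested regions did, and the 2 had them above, where 5.13% did. The calls rest on these same values, so the separation follows from the choice and adds no support. That holds too for the regions named below by their size or p. The decreases ran from -1.13 to -2.56 on the log2 scale. The replicate numbers were taken to pair the libraries, from correlations in these same data and not from a statement in the labels. With the number as a block the counts were 1937 lower (5.52%) and 1173 higher (3.34%), together 8.86%, the 38 and the 2 included. Most of the latter were moderate, with a median log2 difference of -0.60 for decreases and 0.51 for increases, and 171 and 21 of them passed a 2-fold difference. Leaving out DMSO replicate 1 left no call without the block (lowest adjusted p = 0.0540 in limma, with 1212 lower and 370 higher at an unadjusted p under 0.05), leaving out DMSO replicate 2 or 3 left 10 or 17 lower regions, and leaving out ERKi replicate 1, 2 or 3 left 4, 43 or 69. With the block, leaving out the pair numbered 1, 2 or 3 left 1256, 2077 or 940 lower and 745, 1274 or 345 higher regions. The full fit with the block has 2 residual degrees of freedom, and the fits without a pair have fewer. The p-values of these fits rest largely on the variance shared across regions, so the counts say little on stability. On all regions with a peak in at least 3 libraries the block called 117 and 34, with missing values set to the library's lowest pileup. Every count by gene given with the block rests on the fit of 1937 and 1173.

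**Figure D1:**
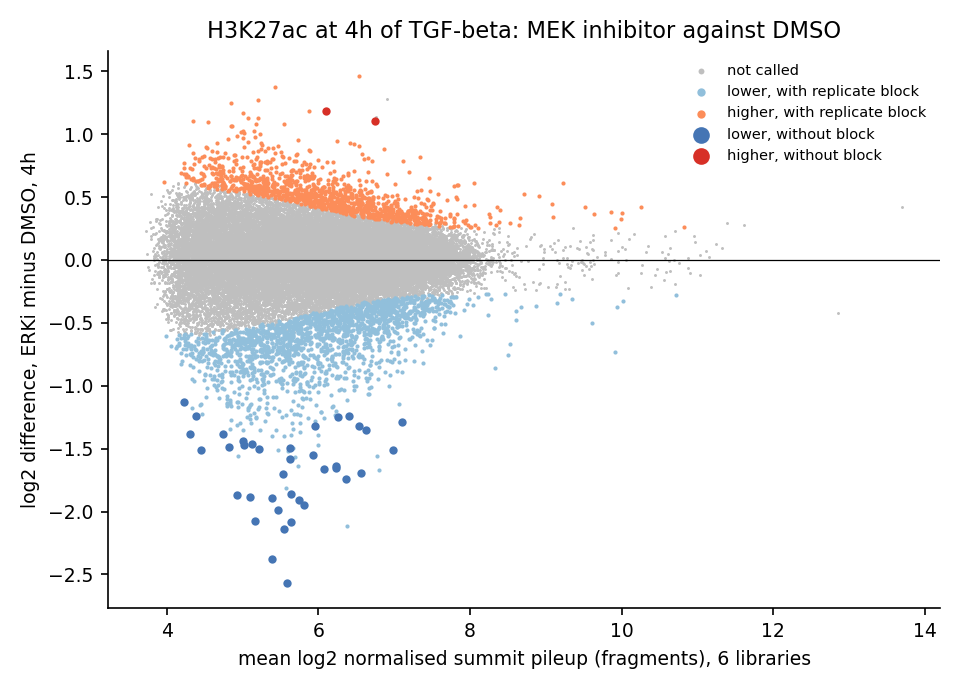
Each point is 1 of the 35093 regions with a peak in all 6 libraries, with the mean log2 normalised summit pileup on the x axis and the log2 difference ERKi minus DMSO on the y axis. The 38 regions called lower without the block reach -2.56, the 2 called higher reach 1.18, and the 1937 and 1173 regions called with the block lie below and above 0.

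The largest decrease among the called regions was in an intronic region nearest to Lrrk1, which encodes a leucine-rich repeat kinase, 27.6 kb from the nearest of its start sites (chr7:73454366-73455428). Its summit pileup was 113, 118 and 119.8 fragments in the DMSO libraries and 17.1, 28.6 and 15.9 in the ERKi libraries. This is a 5.92-fold decrease (log2 difference -2.56 ± 0.26 SE, adjusted p = 0.00432), and the highest ERKi library lay far below the lowest DMSO library.
An intronic region of Txnrd3, a thioredoxin reductase gene, had 96.4, 75.1 and 119.8 fragments in the DMSO libraries and 15.9, 23.0 and 16.9 in the ERKi libraries (log2 difference -2.38 ± 0.26 SE, adjusted p = 0.00463). Both tested regions nearest to Ros1, which encodes a receptor tyrosine kinase, were called, and the higher one (chr10:51894550-51896072) had 103, 91.9 and 99.7 fragments in the DMSO libraries and 20.9, 20.7 and 25.5 in the ERKi libraries (log2 difference -2.14 ± 0.22 SE, adjusted p = 0.00432). The second, 24.3 kb from the start site, had 52.1, 45.2 and 82.8 fragments in the DMSO libraries and 14.8, 16.9 and 15.9 in the ERKi libraries, a 3.66-fold decrease (log2 difference -1.87 ± 0.26 SE, adjusted p = 0.0185).

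The only called region at a promoter lay over the start of Etv4 (chr11:101645199-101646644), which encodes an ETS factor of the PEA3 group and is a known target of receptor tyrosine kinase signalling. Its pileup was 105, 108 and 95.4 fragments in the DMSO libraries and 28.7, 32.5 and 15.3 in the ERKi libraries, a 4.24-fold decrease (log2 difference -2.08 ± 0.28 SE, adjusted p = 0.0185). The other tested region of Etv4 was also lower with the block, at a log2 difference of -1.35. Near Dmrta1, a region 194 kb from the start site and on the side of Cdkn2b had 89.6, 116 and 129 fragments in the DMSO libraries and 27.9, 29.7 and 27.9 in the ERKi libraries (log2 difference -1.95 ± 0.22 SE, adjusted p = 0.00656). An intronic region 59.4 kb from the start of Fzd5, the gene of a Wnt receptor, had 89.6, 104 and 119.8 fragments in the DMSO libraries and 20.1, 31.1 and 33.7 in the ERKi libraries (log2 difference -1.91 ± 0.25 SE, adjusted p = 0.0176). None of these 3 regions overlapped between the groups.

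The remaining members of the 12 largest decreases among regions called without the block were nearest to 5033411D12Rik, Gm10495, Atf7, Kank1 and Zdhhc18, with log2 differences between -2.08 and -1.86. At 5033411D12Rik a second region within 2.99 kb was called as well, at -1.51. Atf7 encodes a factor of the CREB and ATF family, and its region had 75.1, 90.8 and 77.1 fragments in the DMSO libraries and 19.2, 36.3 and 14.6 in the ERKi libraries. In the Atf7, Kank1 and Zdhhc18 regions the second ERKi library was the highest of its group, at 36.3, 31.1 and 42.6 fragments, and still below every DMSO library. The other called regions, named after their values were seen, included intronic regions nearest to Nrp1 (-1.58), a co-receptor for semaphorins and VEGF, to Tead1 (-1.50), a DNA-binding partner of YAP, to Bcl2l1 (-1.32), which encodes the survival protein Bcl-xL, and to Ksr2 (-1.24), a scaffold of the RAF, MEK and ERK cascade.

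**Figure D2:**
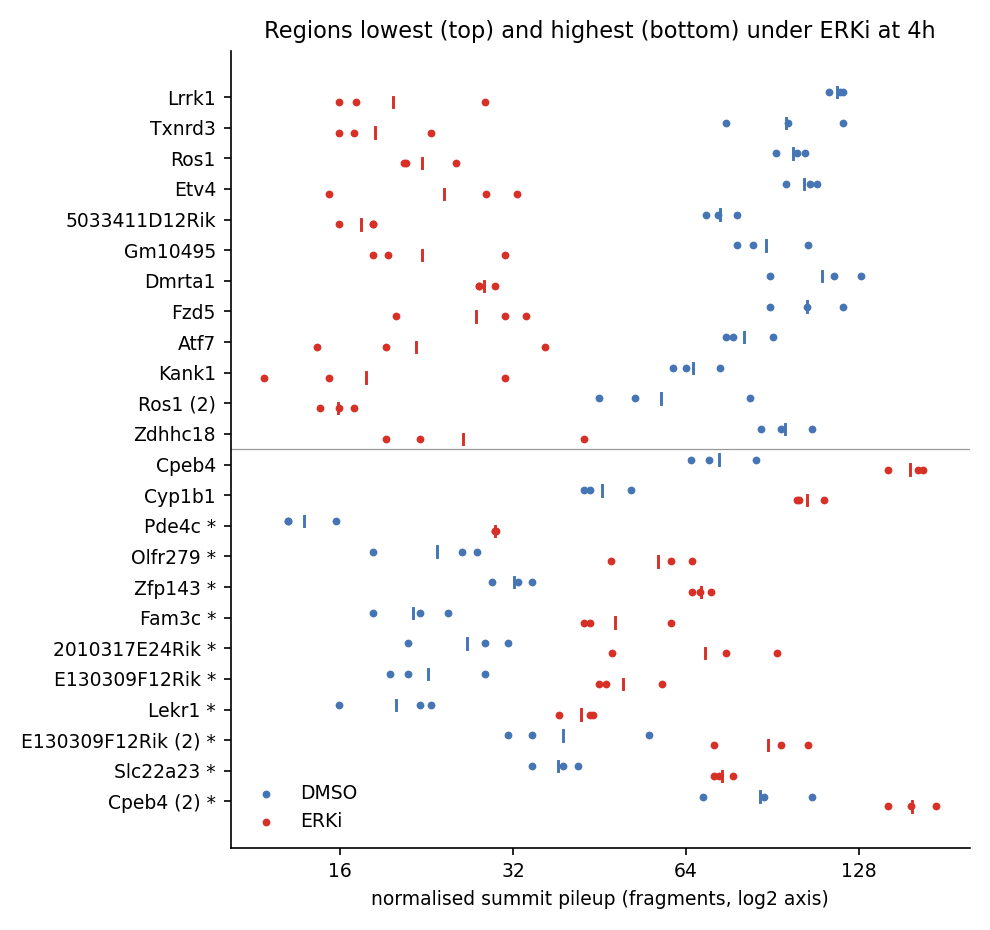
Normalised summit pileup in fragments (log2 axis) in each of the 3 DMSO and 3 ERKi libraries, with a bar at the mean of the log2 values, for the 12 regions with the largest decrease among those called without the block and the 12 increases with the smallest p. Regions marked with an asterisk did not pass the test without the block. In each of the 24 regions the 2 groups do not overlap, but the 24 were chosen on these values.

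The 2 regions that rose were near Cpeb4 and Cyp1b1. The first (chr11:31723894-31724808) lies 47.7 kb upstream of Cpeb4, which encodes an RNA-binding regulator of translation, and over the start of the non-coding transcript D630024D03Rik. It had 70.3, 65.3 and 84.7 fragments in the DMSO libraries and 144, 166 and 162 in the ERKi libraries, a 2.15-fold increase (log2 difference 1.10 ± 0.18 SE, adjusted p = 0.0465). The second (chr17:80113805-80116321) lies 1.13 kb from the start of Cyp1b1, a cytochrome P450 gene, and had 43.6, 51.3 and 42.6 fragments in the DMSO libraries and 101, 99.7 and 111 in the ERKi libraries, a 2.27-fold increase (log2 difference 1.18 ± 0.20 SE, adjusted p = 0.0497). The next 10 by p did not pass without the block, with adjusted p from 0.0614 to 0.138, and passed with it. They were nearest to Pde4c, Olfr279, Zfp143, Fam3c, 2010317E24Rik, E130309F12Rik (2 regions), Lekr1, Slc22a23 and again Cpeb4, at log2 differences between 0.88 and 1.38. The region nearest to Zfp143, a transcription factor gene, had 34.5, 32.7 and 29.4 fragments in the DMSO libraries and 65.5, 67.8 and 70.8 in the ERKi libraries. In Fam3c, which encodes a secreted interleukin-like EMT inducer, the pileup was 24.7, 18.2 and 22.0 fragments in the DMSO libraries and 43.6, 42.6 and 60.2 in the ERKi libraries.

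The local background that the peak caller set beside each summit moved with the pileup. At the Lrrk1 region it was 13.0, 11.5 and 14.9 fragments in the DMSO libraries and 2.7, 3.9 and 2.6 in the ERKi libraries, and at the Cyp1b1 region 6.0, 6.4 and 6.2 against 15.8, 15.7 and 17.4, after setting the library medians equal. It was lower under ERKi in all 38 lower regions (median log2 difference -1.59, with -1.57 for the pileup) and in 99.7% of the regions lower with the block, against 49.7% of all tested. The 2.7 and 2.6 at the Lrrk1 region were also the values of those libraries at Foxc2 and Cdkn1c, near the floor of the background. Over the peaks of a library, background and pileup had a Spearman correlation between 0.845 and 0.853 (50445 to 66385 peaks, which are not independent). Fold enrichment is the pileup over this background, and by fold enrichment no region passed in either direction (limma, lowest adjusted p = 0.773, and 0.262 with the block), with 822 lower and 869 higher at an unadjusted p under 0.05. By that measure 30 of the 38 lower regions were lower and the rest were not, among them the second Ros1 region (log2 difference 0.26), and the Cyp1b1 region was lower (-0.11) rather than higher. The median log2 difference in fold enrichment was -0.28 for the 38, and -0.15 for the regions lower and 0.17 for those higher with the block. What part the local background has in the calls was not tested.

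With the replicate block, the called regions were spread over 1236 nearest genes for decreases and 863 for increases, and several loci held many. Tgif1, a repressor of Smad-driven transcription, was nearest to 12 lower regions of 25 tested within 91.1 kb. Myc held 10 of 36, which lay 132 to 531 kb from its start site. Errfi1, whose product Mig6 inhibits the EGF receptor, held 8 of 15, Ccnd1 (cyclin D1) 8 of 18, and Phlda1 8 of 22. On chromosome 4, all 8 regions nearest to Dmrta1 and 7 of 18 nearest to Cdkn2b, which encodes the CDK inhibitor p15, were lower, the first over 40.1 kb and the second over 131 kb. Smad3 and Sox9 held 7 each, of 18 and 20. The decreases in these loci were moderate, with medians from -0.48 at Tgif1 to -0.84 at Errfi1, and of all the regions in these loci only 1, at Dmrta1, also passed without the block. On chromosome 17, 7 of 8 regions nearest to 1110012J17Rik were lower too, 1 of them at a log2 difference of -2.11 (adjusted p = 0.0785 without the block), beside the called region nearest to Gm10495 (named after the values were seen).

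Increases with the block also clustered. Ptpn14, which encodes a phosphatase that restrains YAP, was nearest to 13 higher regions of 22 tested (median log2 difference 0.56), and none was lower. Hlcs, the gene of the ligase that attaches biotin to carboxylases, held 9 of 11 (0.57), and the X-linked Gm17379 all 10 of 10 within 22.4 kb (0.48). Galnt2, Zbtb10, Arhgef26 and Il33 held 6 each. In the Arhgef26 and Il33 loci 1 region each was lower. Neighbouring regions of a locus lie within the same stretches of chromatin, and their calls are not independent of each other.

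Genes of known roles were then read as lists, with each region given to the nearest start site of a protein-coding gene. Without the block no list had a called region except the ETS and RUNX factors (Etv4) and a list added later (Cyp1b1), so the counts given here are those with the block, to be set against 5.52% lower and 3.34% higher among all 35093 regions and a median log2 difference of 0.02. Brakes on ERK signalling had 23.2% of their regions called lower. Of the 22 listed genes, 19 had a tested region, and 26 of the 112 regions tested were lower and 3 higher with the block, and the median log2 difference was -0.15; without the block 24 were lower and 2 higher at an unadjusted p under 0.05. The 26 belonged to 10 genes, among them 8 of 15 regions of Errfi1, 3 of 5 of Spred1, 2 of 5 each of Spry2 and Dusp6 and 2 of 4 of Dusp5. The region of Errfi1 with the smallest p had 96.4, 99.7 and 103 fragments in the DMSO libraries and 33.7, 55.4 and 43.0 in the ERKi libraries (log2 difference -1.21, adjusted p = 2.84e-06 with the block and 0.0697 without). At the promoter of Spry4, which encodes a Sprouty inhibitor of receptor tyrosine kinase signalling, the pileup was 63.8, 82.2 and 44.2 fragments in the DMSO libraries and 26.9, 35.0 and 19.4 in the ERKi libraries (log2 difference -1.22, adjusted p = 1.23e-05 with the block and 0.182 without). Near Dusp6, the gene of the phosphatase that removes phosphate from ERK, a region 21.4 kb away had 187, 195 and 188 fragments in the DMSO libraries and 105, 148 and 134 in the ERKi libraries (log2 difference -0.57, adjusted p = 3.62e-04 with the block and 0.341 without). The groups did not overlap in any of these 3 regions. Dusp1, Dusp10 and Dusp16 each had 1 region that was higher.

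Upstream of the cascade, the ligands and receptors of the EGF family were listed. In this list of 13 genes, 12 of the 61 regions tested were lower and 1 higher with the block, and the median log2 difference was -0.18; without the block 11 were lower and 2 higher at an unadjusted p under 0.05. Egfr, the receptor, had 5 of 15 regions lower. The intronic region with the smallest p had 106, 69.4 and 114 fragments in the DMSO libraries and 64.7, 37.6 and 60.2 in the ERKi libraries (log2 difference -0.84, adjusted p = 7.80e-05 with the block and 0.397 without), and every ERKi library lay below the lowest DMSO library. Ereg, Areg, Epgn, Tgfa, Btc and Nrg2, all ligand genes, had between 1 and 2 lower regions each. At Ereg, the gene of epiregulin, the pileup was 36.8, 40.1 and 41.6 fragments in the DMSO libraries and 26.1, 22.0 and 15.9 in the ERKi libraries (log2 difference -0.91, adjusted p = 0.00228 with the block and 0.236 without). The 1 higher region was the promoter of the receptor gene Erbb3, at 87.3, 112 and 84.7 fragments in the DMSO libraries and 119, 133 and 134 in the ERKi libraries (log2 difference 0.45, adjusted p = 0.0074 with the block and 0.621 without).

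Transcription factors that ERK acts on were listed as ETS and RUNX genes and as AP-1 genes. In the first list, 5 of the 112 regions tested were lower and 10 higher with the block, and the median log2 difference was 0.05. Etv4, Etv5 and Etv6 held 4 of the 5 lower regions, and the 10 higher ones were at Ets2 and Runx1 (4 each), Ehf and Gabpa. At Etv6 the pileup was 38.6, 41.6 and 46.6 fragments in the DMSO libraries and 20.9, 24.7 and 24.7 in the ERKi libraries (log2 difference -0.85, adjusted p = 0.00174 with the block and 0.222 without). At Runx1 a region 298 kb away had 31.9, 26.1 and 36.3 fragments in the DMSO libraries and 40.1, 45.2 and 63.3 in the ERKi libraries (log2 difference 0.64, adjusted p = 0.0142 with the block and 0.607 without). For the AP-1 genes the counts were close to those of all regions: 4 of the 68 regions tested were lower and 3 higher with the block, and the median log2 difference was -0.02; without the block 2 were lower and 1 higher at an unadjusted p under 0.05. Fosl1, which encodes the Fos-like factor Fra-1, had an intronic region with 227, 245 and 196 fragments in the DMSO libraries and 178, 135 and 147 in the ERKi libraries (log2 difference -0.54, adjusted p = 5.92e-04 with the block and 0.369 without). The promoter of Maff had 331, 382 and 342 fragments in the DMSO libraries and 251, 251 and 279 in the ERKi libraries, and no AP-1 gene had more than 1 lower region.

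Immediate-early genes respond to growth factors within an hour. In this list, 31 of the 260 regions tested were lower and 8 higher with the block, and the median log2 difference was -0.10; without the block 28 were lower and 4 higher at an unadjusted p under 0.05. The 31 lower regions belonged to 8 of 27 genes, with 10 nearest to Myc and 8 to Phlda1. By the nearest annotated gene of any kind, 6 of 113 regions were lower and 4 higher with the block. Within 100 kb of a protein-coding start site, 15 of 163 were lower and 7 higher. The Myc region with the smallest p, 299.6 kb from its start site, had 132, 138 and 139.6 fragments in the DMSO libraries and 68.4, 86.3 and 76.2 in the ERKi libraries (log2 difference -0.83, adjusted p = 1.15e-05 with the block and 0.111 without). Klf6 had 4 lower regions, Ier5 3 and Ier3 2. Klf10 went the other way, with 4 of 8 regions higher and values of 15.3, 19.6 and 22.0 fragments in the DMSO libraries and 36.3, 27.1 and 40.1 in the ERKi libraries at the first (log2 difference 0.86, adjusted p = 0.00401 with the block and 0.279 without). Klf10 is itself an early TGF-β response gene.

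Among genes of TGF-β signalling, 34 of the 243 regions tested were lower and 8 higher with the block, and the median log2 difference was -0.03; without the block 28 were lower and 4 higher at an unadjusted p under 0.05. The lower regions sat at Tgif1 (12), Smad3 (7), Cdkn2b (7), Smad7 (5), Ltbp1 (2) and Tgfbr2 (1). Smad7, which encodes the inhibitory Smad induced by TGF-β, had an intronic region with 154, 123 and 165 fragments in the DMSO libraries and 73.9, 61.8 and 74.1 in the ERKi libraries (log2 difference -1.07, adjusted p = 3.04e-07 with the block and 0.0614 without). At Smad3, the receptor-activated Smad, the pileup was 93.0, 111 and 112 fragments in the DMSO libraries and 53.6, 66.6 and 65.5 in the ERKi libraries (log2 difference -0.77, adjusted p = 9.79e-05 with the block and 0.222 without). In both regions the groups were apart. Higher regions were found at Tgfb2 and Tgfbr3 (3 each) and at Id2 (2), the last being a target of BMP signalling. Tgif1, Smad3 and Cdkn2b held 26 of the 34 lower regions. The count depends on how regions are given to genes. By the nearest annotated gene of any kind, 7 of 156 regions were lower and 7 higher with the block. Within 100 kb of a protein-coding start site, 21 of 203 were lower and 7 higher.

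For transcription factors of EMT, 9 of the 85 regions tested were lower and 2 higher with the block, and the median log2 difference was -0.12, and 7 of the 9 lower regions were nearest to Sox9. By the nearest annotated gene of any kind, 1 of 32 regions was lower with the block. Hmga2, a chromatin protein that TGF-β induces, had 1 lower region of 7, with 56.9, 42.6 and 62.8 fragments in the DMSO libraries and 34.5, 27.1 and 32.7 in the ERKi libraries (log2 difference -0.77, adjusted p = 0.00242 with the block and 0.377 without). An intronic region of Zeb1, a repressor of Cdh1, was higher, with 26.1, 31.4 and 26.9 fragments in the DMSO libraries and 38.1, 39.1 and 46.2 in the ERKi libraries (log2 difference 0.55, adjusted p = 0.0441 with the block and 0.638 without). In the list of matrix, integrin and motility genes, 31 of the 240 regions tested were lower and 5 higher with the block, and the median log2 difference was -0.06; without the block 24 were lower and 3 higher at an unadjusted p under 0.05. The integrin genes Itga2, Itga3 and Itgav had 3 lower regions each, Itgb1 had 2, and none of these 4 had a higher one. At Itga3 the pileup was 136, 139.7 and 155 fragments in the DMSO libraries and 67.6, 81.2 and 97.7 in the ERKi libraries (log2 difference -0.82, adjusted p = 1.23e-05 with the block and 0.157 without). Tnc, the gene of the matrix protein tenascin C, had 32.7, 25.1 and 41.6 fragments in the DMSO libraries and 11.8, 15.8 and 16.9 in the ERKi libraries at the region with its smallest p (log2 difference -1.14, adjusted p = 3.18e-04 with the block and 0.113 without). Neither region overlapped between groups.

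In the list of inflammatory and NF-κB genes, 18 of the 136 regions tested were lower and 8 higher with the block, and the median log2 difference was -0.04. Nfkb1 had 4 of 8 regions lower, and the chemokine genes Ccl20 and Cxcl5 had 2 each. At Cx3cl1, a chemokine gene, the pileup was 36.8, 39.1 and 47.5 fragments in the DMSO libraries and 17.1, 26.1 and 15.3 in the ERKi libraries (log2 difference -1.11, adjusted p = 4.48e-04 with the block and 0.148 without). The higher regions were at Il33 (6 of 12) and Csf1 (2 of 10). For genes of epithelial junctions and identity, 10 of the 193 regions tested were lower and 10 higher with the block, and the median log2 difference was 0.03. These are 5.18% each way, where 5.52% of all regions were lower and 3.34% higher. Without the block 4 were lower and 7 higher at an unadjusted p under 0.05. Cdh1, which encodes E-cadherin, had 2 lower regions of 8, with 91.3, 105 and 154 fragments in the DMSO libraries and 56.2, 65.5 and 68.6 in the ERKi libraries at the first (log2 difference -0.85, adjusted p = 4.60e-05 with the block and 0.24 without), whereas its promoter peak ranked between percentiles 89.0 and 92.8 in all 6 libraries. Grhl2 and Grhl3, which encode factors of epithelial identity, had 2 higher regions each, and Pard3 and Shroom3 also 2 each. Ribosomal protein genes, listed as a contrast, had 2 lower and 2 higher regions of 142.

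**Figure D3:**
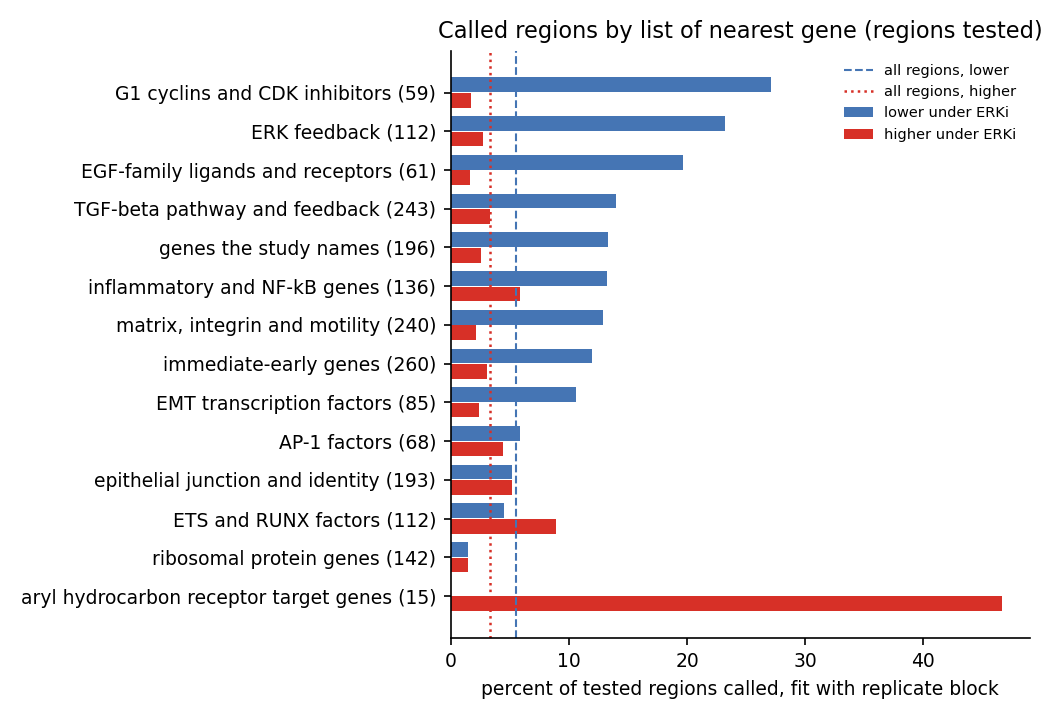
Percent of each list's tested regions called lower or higher under ERKi in the fit with the replicate block, with the number of regions tested in parentheses and lines at the 5.52% and 3.34% of all regions. ERK feedback reaches 23.2% lower and the EGF family 19.7%. Epithelial genes have 5.18% each way, just below the line for lower and above that for higher. The lists of G1 and aryl hydrocarbon receptor genes were added after their values were seen.

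The 28 genes that the study itself names had 196 tested regions, of which 26 were lower and 5 higher with the block, at 10 and 3 genes. The study chose some of them on these libraries, so the list is not independent evidence of a direction. Jak2, a cytokine receptor kinase, had 4 of 9 regions lower, with 145, 132 and 133 fragments in the DMSO libraries and 70.1, 90.9 and 64.5 in the ERKi libraries at the first (log2 difference -0.88, adjusted p = 1.60e-05 with the block and 0.124 without). Itga2, a collagen-binding integrin gene, had a mean of 27.5 ± 3.48 fragments with DMSO and 15.2 ± 1.08 with ERKi (SD, n = 3), without overlap (log2 difference -0.85, adjusted p = 0.00457 with the block and 0.177 without). Lower regions were also found at Jag1 (5 of 21), Ltbp1, Lamb1, Ccl2, Cx3cl1, Hmga2, Sox9 and Wnt4. An intronic region of Wnt4 near its start site was higher, at 46.5, 53.4 and 36.3 fragments in the DMSO libraries and 66.5, 103 and 59.2 in the ERKi libraries (log2 difference 0.72, adjusted p = 0.00142 with the block and 0.519 without), and so were 2 regions each of Shroom3 and Id2. No tested region of Il11, Snai1, Tgfbr1, Nid2, Cmtm8, Crb3, Tjp3 or Cdkn1a was called in either fit. The same held for Id3, Cldn9, Itgb3, Enc1, Col1a1, Gata5, Crb2 and Notch1. Il11, Nid2, Crb3 and Tjp3 had only 1 tested region each, and regions without a peak in all 6 libraries were not tested. The study used enrichment over input, which is another measure than the pileup here. At Snai1 the region with the smallest p had 216, 189.7 and 204 fragments in the DMSO libraries and 191, 146 and 215 in the ERKi libraries (log2 difference -0.16 ± 0.17 SE).

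A pair of further lists was made after the values were seen and is given as a description. In the list of G1 cyclins and CDK inhibitors, 16 of 59 regions were lower and 1 was higher with the block, all but 1 of the 16 at Ccnd1 (8) and Cdkn2b (7). The first Ccnd1 region, 167 kb from the start site, had 131, 127 and 168 fragments in the DMSO libraries and 54.5, 83.7 and 87.5 in the ERKi libraries (log2 difference -0.94, adjusted p = 8.44e-06 with the block and 0.164 without). Ccnd1 is a classic transcriptional target of sustained ERK activity. Of 8 listed target genes of the aryl hydrocarbon receptor, a ligand-activated factor that induces enzymes of xenobiotic metabolism, 5 had tested regions. All 15 regions had a higher mean under ERKi, and 7 of them, at Cyp1b1 (3), Tiparp (2), Nqo1 (1) and Ugt1a6a (1), were called higher with the block. At Tiparp the pileup was 20.1, 22.0 and 18.2 fragments in the DMSO libraries and 32.7, 50.3 and 36.5 in the ERKi libraries (log2 difference 0.96, adjusted p = 8.08e-04 with the block and 0.193 without), and at the promoter of Ugt1a6a 24.7, 19.6 and 27.7 fragments in the DMSO libraries and 46.5, 37.6 and 49.1 in the ERKi libraries (log2 difference 0.89, adjusted p = 9.88e-04 with the block and 0.238 without). The groups did not overlap at either.

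Presence and absence of peaks gave smaller sets. A peak in all 3 DMSO libraries and no ERKi library was found in 334 regions (0.468% of 71317), and the reverse in 239 (0.335%). The numbers depend on how a peak is counted: leaving out 1 library gave 431 to 896 and 352 to 958, merging within 1000 bp gave 171 and 152, and at a -log10 q of at least 10 the reverse set was 63. These were weak peaks, with a median percentile of 23.4 and 15.7 in the lists that called them. The DMSO set was led by regions nearest to Glis3, Epha2, D15Ertd621e, Fmnl3, Tk1 and Sema4b, which had mean fold enrichments between 1.42 and 2.24. The ERKi set was led by C030046E11Rik, Tns3, Setd5, Adh7, Srp14 and Psd3, with folds between 1.5 and 2.04. All 12 ranked above the median of their lists by pileup, the rank by which they were chosen. The Glis3 and C030046E11Rik regions had mean percentiles of 99.8 and 99.6 at folds of only 1.42 and 1.5. A missing call gives no level, so it need not mean that acetylation was absent in the other group. Of the 334, 62.0% had a peak in all 3 DMSO libraries at 24h and 14.1% in all 3 ERKi libraries at 24h. Of the 239, 12.1% and 36.4% did. Before TGF-β, 47.0% of the 334 and 13.8% of the 239 had a peak in all 3 libraries. The same shares among all 71317 regions were not computed, so these are a description only. Only 2.40% of the first set were promoters, and 12.6% of the second.

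The 24h libraries, which share no sample with those of 4h, gave a separate look at the same regions. Of the 38 lower regions, 31 had a peak in all 6 libraries at 24h, all 31 were lower under ERKi there, and 25 were called (80.6% of the 31 and 3.60% of the 694 called lower at 24h, which are 2.29% of 30352). Both higher regions were called higher. With the block in both fits, 1083 of 1740 lower regions were lower again (62.2%, and 30.5% of 3555, which are 11.7% of the regions tested) and 13 were higher. Of 915 higher regions, 546 were higher again (59.7%, and 15.1% of 3608, which are 11.9%). The difference at 24h had the sign of that at 4h in 92.4% of the 1740 and 90.8% of the 915, where 48.9% of all regions were lower. Across 30352 regions, which are not independent, the 2 differences had a Pearson correlation of 0.58. The Ros1 region fell by 2.14 at 4h and by 2.04 at 24h on the log2 scale, whereas the Lrrk1 region fell by 2.56 and by 0.95. A test of the difference between the times, with the block, called 1085 regions (3.57%), Lrrk1 among them, and none without it (limma, lowest adjusted p = 0.315, with 1636 at an unadjusted p under 0.05). The Lrrk1 region was chosen for its 4h difference, which is part of that test, so a smaller decrease at 24h can follow from the choice.

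**Figure D4:**
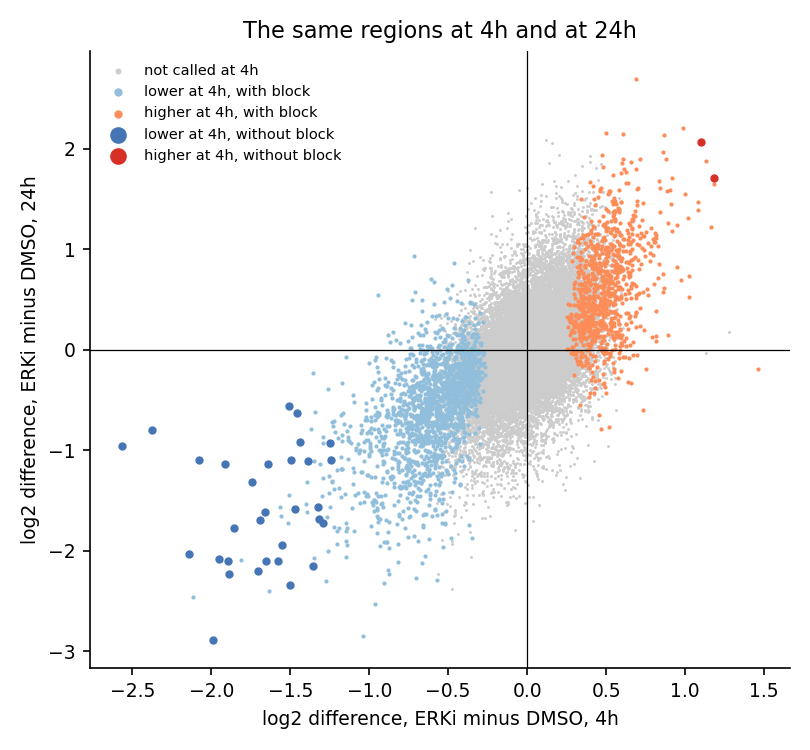
Log2 difference ERKi minus DMSO at 4h (x axis) and at 24h (y axis) for the 30352 regions with a peak in every library of both times. The 31 regions called lower at 4h without the block all lie below 0 at 24h, and the 2 called higher lie above it.

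Ranks within each list place the sets along the time course. The 38 lower regions had a median percentile of 74.3, 71.9 and 83.0 in the 4h DMSO libraries and of 21.3, 34.3 and 29.9 in the ERKi libraries, where the median of all tested regions was between 61.8 and 68.4. Before TGF-β they stood at 64.6, 74.6 and 80.5, the last 2 above the 62.0 and 64.9 of all tested regions in those libraries. At 24h they stood between 70.8 and 85.3 with DMSO and between 36.6 and 43.5 with ERKi. The 1937 regions lower with the block averaged percentile 67.2 before TGF-β, and 72.4 and later 76.5 with DMSO, against 55.7 and later 60.5 with ERKi. The 1173 higher regions had the opposite order, at 62.3 and then 57.9 and 51.3 with DMSO, against 72.4 and 71.3 with ERKi. The 4h values are those that chose the sets and are a description; no test was run on the order along time.

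**Figure D5:**
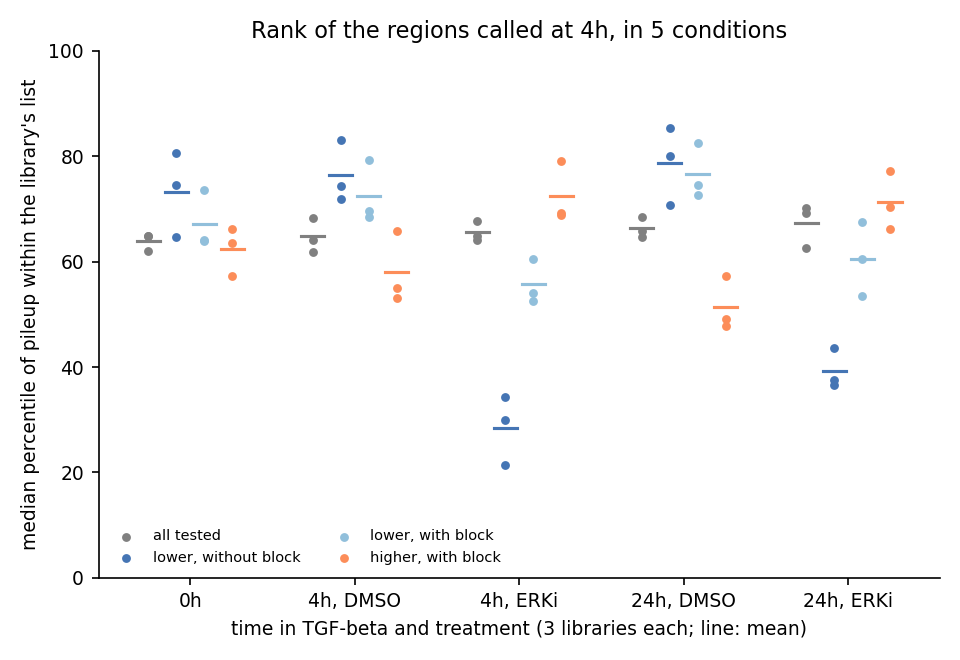
Median percentile of the pileup within each library's list, for all tested regions and the sets called at 4h, in the 3 libraries of 5 conditions (points) with their mean (line). The 38 lower regions fall from between 71.9 and 83.0 with DMSO to between 21.3 and 34.3 with ERKi at 4h.

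The called regions were mostly distal. Promoters, taken as the stretch from 1000 bp before a start site to 100 bp past it, made up 5.89% of the regions lower with the block and 13.6% of the higher ones, against 22.3% of all tested. The median distance to the nearest protein-coding start site was 23.0 kb, 11.8 kb and 7.02 kb. Of the 38, 22 were intronic, 15 intergenic and 1 at a promoter. The AP-1 consensus TGANTCA was within the 500 bp centred on the summit in 13 of the 38 (34.2%), in 28.5% of the 1937 lower with the block, in 235 of the 1173 higher ones and in 19.2% of all. Outside promoters the shares were 29.3% of the lower, 21.2% of the higher and 22.1% of all regions. In the same order and also outside promoters, the RUNX motif TGTGGTT was in 11.8%, 10.6% and 10.4%. The ETS motif CCGGAAGT was in 1.70%, 0.296% and 1.84%, and the SP motif GGGCGGGG in 2.91%, 6.42% and 8.63%. The HIF motif TACGTGC was in 0.878%, 2.27% and 1.27%, and the FOX motif TGTTTAC in 8.39%, 7.11% and 7.68%. The motif TTGCGTG of the aryl hydrocarbon receptor was in 1.15%, 2.67% and 1.58%. With promoters included, the GC content of the windows averaged 47.5%, 51.3% and 53.1%. All motifs were searched on both strands, and their part in the differences was not tested.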

How the data were processed

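H3K27ac ChIP-seq was performed in NMuMG/E9 cells, and only the peak lists were analysed here. Per the submitters' processing notes and the study's methods, the authors used Bowtie to align to mm9, and MACS2 to call peaks in every library by itself. The control used in peak calling is not given in the sources used here. The deposited lists hold, for each peak, the fold enrichment over the local background as a ratio, p-values and q-values as -log10, and a score column (-log10 q in whole numbers) that was not used. Both the pileup and the background at a summit were recovered by solving the fold enrichment (pseudocount 1) and the Poisson p together. The total reads per library are therefore unknown. Peak number cannot be taken for depth, since it did not follow the median pileup of the peaks. DMSO libraries with 50445, 56140 and 66385 peaks had medians of 57, 39 and 47 fragments. ERKi libraries with 56211, 57660 and 64815 peaks had 48, 38 and 45.

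Peaks of the 6 lists were merged where they shared at least 1 bp, and regions with a peak in all 6 were tested on quantile-normalised log2 pileup with limma 3.58.1 in R 4.3.3 (two-sided, trended variance, Benjamini-Hochberg over all regions, 0.05). Differences are ERKi minus DMSO. Replicate numbers are from the labels, and nothing states that they are separate cultures, so the p-values measure the spread between these samples only. Deviations from the group means correlated by 0.492, 0.621 and 0.759 in the same-numbered pairs, each above 0.1. Between different numbers they correlated by -0.635 to 0.151, the highest also above 0.1 but below every same-numbered pair. The numbers were therefore taken to pair the libraries, and a fit with the number as a block was run beside the fit without it. Deviations cancel out within a group, so high correlations of same-numbered pairs lower the others, and this contrast is partly built in. Per region, limma drew on 2 residual and 23.9 prior degrees of freedom with the block, and on 4 and 8.61 without it. The prior ones come from the variance of all regions. Regions were given to the nearest protein-coding start site of GENCODE vM1, whose build is that of the lists. On simulated data of 35093 regions, 57% of 2-fold and 100% of 4-fold changes were recovered without the block and 76% and 100% with it, with 0 and 6 false calls. The simulated libraries with the same number were given a shared deviation, so the gain of the block was built in. Regions were drawn independently and with a spread not fitted to these data. The false calls therefore do not measure the error among the 1937 and 1173. The text names the 12 called regions with the largest decrease, the 12 increases with the smallest p, the 6 highest-ranked regions called in 1 group alone, the 6 genes with the most calls each way, the genes of each list whose region has the smallest p, and the genes the study names. The regions, gene lists and tests were chosen with earlier results of these data known. Python 3.11.15, SciPy 1.17.1 and pandas 2.3.3 were used.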

Additional observations from a re-analysis of the deposited data

Results flagged for a closer look

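Among the largest decreases and the increases with the smallest p, 6 regions had an ERKi minus DMSO difference that changed between 4h and 24h. The test was an interaction term with the replicate block (limma, adjusted p under 0.05), which 1085 of 30352 regions passed (3.57%). The log2 difference at 24h minus that at 4h was 1.64 in the Lrrk1 region, 1.62 in the Txnrd3 region, 1.01 in the first 5033411D12Rik region and 0.80 in the Fzd5 region, so each decrease was smaller at 24h. It was 0.94 and 1.00 in the 2 Cpeb4 regions, so both increases were larger at 24h. The regions were chosen on their 4h difference, which is part of this term, so smaller decreases at 24h can follow from the choice. Without the block no region passed the interaction test in limma, with 1636 at an unadjusted p under 0.05 and a lowest adjusted p of 0.315.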

How the results depend on the processing

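Of the 84 named regions tried under other settings, 14 were called without the block and 70 were not, so only the 14 had a call to lose. All 14 lost it by fold enrichment and without DMSO replicate 1, 10 lost it by -log10 p and without ERKi replicate 1, 7 without DMSO replicate 2, 3 without DMSO replicate 3, 2 without ERKi replicate 2 and 1 without ERKi replicate 3. With the block all 84 were called. The list regions entered the 84 only if called with the block, so for them this outcome was fixed. By fold enrichment the direction turned in 10 of the 84, with log2 differences of 0.26 at Ros1, -0.11 at Cyp1b1, -0.088 at the second Cpeb4 region, 0.087 at Lamb1, 0.058 at Jag1, -0.0088 at Id2, 0.13 at Spred1, 0.0028 at Phlda1, 0.19 at Cdkn2b and 0.081 at Nfkb1, and the cause was not tested. The fits with a block under another setting were chosen after seeing the data.

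Against 38 regions lower and 2 higher, fold enrichment called 0 and 0 (822 and 869 at an unadjusted p under 0.05), -log10 p 9 and 0 (1311 and 848 unadjusted), peaks of -log10 q at least 10 gave 2 and 0 (684 and 269 unadjusted), the top 50000 peaks per list 20 and 0 (1364 and 640 unadjusted), regions with a peak in at least 3 libraries 127 and 46, merging within 1000 bp 1 higher, and no variance trend 1 higher. In the fits on at least 3 libraries, a missing value was set to the lowest pileup of its library. Leaving out 1 library gave between 0 and 69 lower and between 0 and 2 higher. With the replicate block 1937 and 1173 were called. Under the block, fold enrichment gave 0 and 0 (1628 and 1734 unadjusted), -log10 p 456 and 160, median scaling 2094 and 1260, at least 3 libraries 117 and 34, -log10 q at least 10 1039 and 601, the top 50000 peaks 1778 and 1079, merging within 1000 bp 1497 and 938, and no trend 1189 and 598. Leaving out the pair numbered 1, 2 or 3 gave 1256 and 745, 2077 and 1274, and 940 and 345. These last fits have few residual degrees of freedom, so the counts say little on stability.

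For the 12 lists not added after the values were seen, there were 0 calls without the block except 1 lower for the ETS and RUNX factors. The replicate block moved them to 26 lower and 5 higher for the genes the study names, 26 and 3 for ERK feedback, 5 and 10 for ETS and RUNX factors, 4 and 3 for AP-1 factors, 31 and 8 for immediate-early genes, 12 and 1 for the EGF family, 34 and 8 for the TGF-β pathway, 9 and 2 for EMT factors, 10 and 10 for epithelial genes, 31 and 5 for matrix genes, 18 and 8 for inflammatory genes and 2 and 2 for ribosomal protein genes. By the nearest annotated gene of any kind, with the block, 15 of 91 ERK feedback and 6 of 32 EGF family regions were lower. The count was 19 of 166 for matrix genes, 16 of 113 for inflammatory genes and 12 of 118 for the genes the study names. The TGF-β pathway had 7 of 156, immediate-early genes 6 of 113 and EMT factors 1 of 32, against 5.52% of all regions.

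Regions called in all DMSO and no ERKi libraries numbered 171 when merged within 1000 bp and between 431 and 896 without 1 library. The reverse set numbered 63 at -log10 q of at least 10, 152 when merged within 1000 bp, and between 352 and 958 without 1 library. The difference in peak number was -522 at -log10 q of at least 10, and between -1700.5 and 6270 without 1 library, where it turned without DMSO replicate 1 and without ERKi replicate 3. The difference in promoter share lay between -0.251 and 0.685 percentage points without 1 library. The Jaccard difference lay between -0.0068 and -0.00269. With the block, 1083 and 546 regions were called again at 24h. By fold enrichment the counts were 0 and 0, as they had to be with no call at 4h, while 24h by itself gave 9 lower and 11 higher. In 1000 bp around the summit 57.9% of the lower regions held the AP-1 motif, against 39.2% of all tested. Motif shares by fold enrichment calls have no value, since no region was called.

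A peak list holds no value where no peak was called, so weak regions and total reads are outside these tests. Only the fits on at least 3 libraries filled such gaps, with a set value that was not measured. Only 3 libraries stand in each group, and calls without the block rest on their spread.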
